A study of Mus musculus with 38 samples.

Results

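RUNX1 peaks at promoters that were called at only one of 2 stages, before or after Notch stimulation, formed the subject here. A member was a RUNX1 peak of either stage that HOMER had annotated to a promoter and that shared not even 1 bp with any RUNX1 peak of the other stage. The rule found 522 LP-specific and 694 Phase 1-specific promoter peaks, 1216 in all, out of 70394 RUNX1 peaks in both lists. They were 5.73% of the 9112 promoter peaks in the LP list and 7.51% of the 9244 promoter peaks in the Phase 1 list, against 16.8% and 30.7% of all RUNX1 peaks in these lists. The members were chosen by the RUNX1 peak calls of these 2 lists, so the counts are a description.

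All cells were Cas9-LP, a mouse lymphoid progenitor line derived from fetal liver progenitors of mice with 2 changes (Ebf1-deficient; Rosa26-Cas9 knock-in) and grown with SCF, Flt3L and IL-7. Every group therefore lacked Ebf1, a factor needed for B-lineage development, and carried Cas9. LP cells stood on OP9 stroma, which the study treats as without Notch stimulation, and Phase 1 cells on OP9-DLL4, which presents the Notch ligand DLL4. RUNX1, CTCF, Med12 and p300 were profiled by chromatin immunoprecipitation and sequencing (ChIP-seq) at both stages, and Notch1-IC, the released intracellular part of Notch1, also at the later Phase 2. Further lists came from cells that received pooled guide RNAs against Ctcf, Cbfb or Med12, or control guides (sgCTCF, sgCbfb, sgMed12 and sgCont). Each of the 17 peak lists combined 2 replicates, so no difference carries an error from culture to culture. The labels name the cells of all samples Cas9-LP without saying whether they came from a single line. The peaks are the units counted, and every test and interval below describes the lists and covers counting error only. Read depth was not used here, and the lists hold no expression values with which to check the stage labels against marker genes.

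RUNX1 binds DNA together with its partner CBFβ at short sequences such as TGTGGTT. It is needed for blood stem cells to arise and again in the first steps of T cell development, and it can activate or repress a gene depending on the proteins beside it. CTCF is the main insulator and loop anchor protein of the genome. Med12 belongs to the kinase part of Mediator, which links transcription factors to RNA polymerase, and p300 is an acetyltransferase recruited to active enhancers and promoters.

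The sequences that follow are examples chosen for the short matches they carry, so they show these matches and not a contrast between the directions. Few members of either kind carry them, as counted below. The 3 highest-scored LP-specific members with both an LP CTCF peak and the CTCF consensus lay at Gtpbp2 (a GTP-binding protein), Fem1a (a substrate adaptor of a ubiquitin ligase) and Amigo3 (an adhesion molecule). Each is given as 100 bases of the plus strand of mm10 around the match, which is in capitals and reads on the minus strand in all 3. The windows are chr17:46160171-46160270, chr17:56255912-56256011 and chr9:108052981-108053080. The first 2 peak centres lie in intergenic sequence before their genes and the third in an intron by GENCODE.
Gtpbp2, LP-specific: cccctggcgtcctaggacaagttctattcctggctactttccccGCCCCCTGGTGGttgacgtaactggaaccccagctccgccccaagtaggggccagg
Fem1a, LP-specific: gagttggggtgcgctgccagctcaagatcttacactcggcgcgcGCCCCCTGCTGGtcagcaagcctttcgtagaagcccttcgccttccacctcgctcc
Amigo3, LP-specific: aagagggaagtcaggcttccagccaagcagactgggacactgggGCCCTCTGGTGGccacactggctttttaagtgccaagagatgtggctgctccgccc

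The 3 highest-scored Phase 1-specific members with a RUNX string and a Phase 1 Med12 peak lay at Cep57 (a centrosomal protein), Pik3ip1 (an inhibitor of PI3-kinase) and Ripor2 (a regulator of RhoA). The matches are in capitals, on the minus strand at Cep57 and Ripor2 and on the plus strand at Pik3ip1. The Cep57 window, chr9:13827031-13827060, is cut to 30 bases because it touches an untranslated exon. The windows chr11:3330106-3330205 and chr13:24613526-24613625 belong to peaks centred in introns by GENCODE. They hold no CpG at all, with a GC content of 37% and 40%. The Cep57 window has 60% GC and 3 CpG, and the 3 LP-specific windows above had 60 to 64% GC. In the 200 bp around the centre, median GC was 61.5% over all LP-specific and 60% over all Phase 1-specific members.
Cep57, Phase 1-specific: tcggtctcgcaAACCACAaggacgccacac
Pik3ip1, Phase 1-specific: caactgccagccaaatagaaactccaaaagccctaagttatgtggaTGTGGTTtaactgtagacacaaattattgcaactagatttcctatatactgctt
Ripor2, Phase 1-specific: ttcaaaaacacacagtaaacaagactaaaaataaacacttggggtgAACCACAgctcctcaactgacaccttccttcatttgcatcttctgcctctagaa

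Most of the highest-scored members had a RUNX1 peak of the other stage close beside them. Mnt, whose product opposes Myc by binding Max, held an LP-specific peak with a score of 351.4 at chr11:74830197-74830537 and a Phase 1-specific peak with a score of 357.1 at chr11:74830626-74830954. Only 88 bases separated the 2 peaks. The score is that of the authors' own list, on a scale not stated, so the values of both lists are set side by side and not compared. Pip4k2b (a lipid kinase) likewise had an LP-specific peak of 258.4 and a Phase 1-specific peak of 269.6 with 57 bases between them. The 100 bases at the centre of each of these 4 peaks follow, with CpG in capitals, from chr11:74830318-74830417, chr11:74830741-74830840, chr11:97745182-97745281 and chr11:97744790-97744889, all intergenic by GENCODE. They hold 9 and 10 CpG at Mnt and 7 and 11 at Pip4k2b, and no RUNX string lay in the 200 bp around any of the 4 centres.
Mnt, LP-specific: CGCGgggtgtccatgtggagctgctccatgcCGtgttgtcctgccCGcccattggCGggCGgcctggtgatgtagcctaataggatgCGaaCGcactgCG
Mnt, Phase 1-specific: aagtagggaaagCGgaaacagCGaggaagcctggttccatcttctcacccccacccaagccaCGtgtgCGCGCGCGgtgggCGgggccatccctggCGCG
Pip4k2b, LP-specific: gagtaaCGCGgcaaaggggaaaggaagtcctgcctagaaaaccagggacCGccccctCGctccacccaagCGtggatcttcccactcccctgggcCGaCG
Pip4k2b, Phase 1-specific: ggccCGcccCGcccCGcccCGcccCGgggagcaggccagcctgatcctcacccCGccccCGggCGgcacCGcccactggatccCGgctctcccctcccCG

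The same arrangement was found at 59 genes, which had a promoter peak of each kind, and at 57 of them fewer than 500 bases lay between the 2 peaks, with a median of 189 bases over all 59. After Mnt and Pip4k2b the pairs with the highest scores were those of Cep57 (229.1 in LP and 274.3 in Phase 1, 150 bases apart), Ttc9c (192.4 and 204.4, 92 bases apart) and Fbxo5, an inhibitor of the anaphase-promoting complex (177.9 and 198.6, 182 bases apart). The LP peak was the nearer to the annotated start at 23 of the 59 genes and the Phase 1 peak at 36. Within each list no pair of RUNX1 peak centres lay closer than 639 bp in LP and 664 bp in Phase 1, so a list holds only 1 call for a stretch of this length. Whether RUNX1 moved at these promoters, or the call settled on another point of one broad signal, cannot be told apart from the lists.

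**Figure D1:**
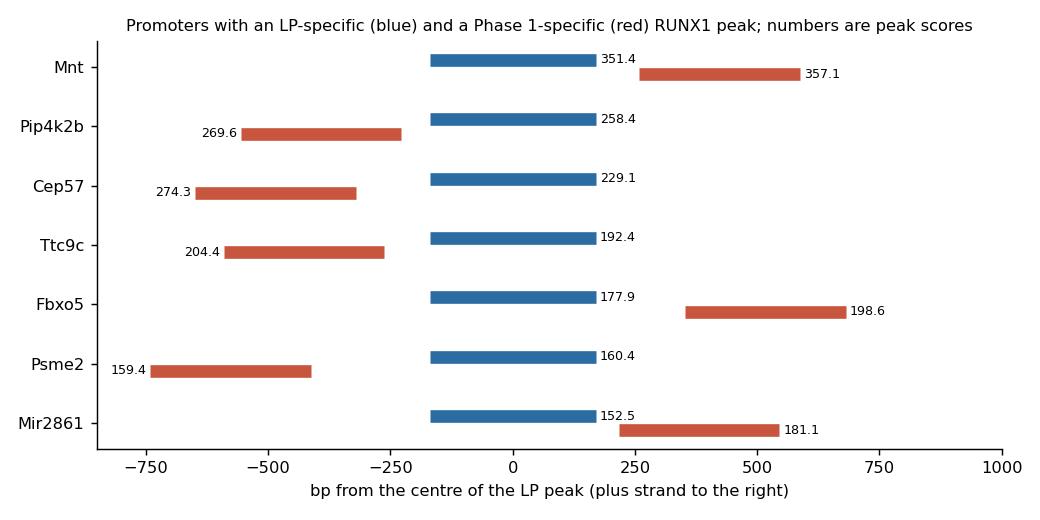
The 7 genes with the highest-scored pairs of promoter peaks, as intervals in bp from the centre of the LP-specific peak; blue bars are LP-specific and red bars Phase 1-specific RUNX1 peaks, to scale, with the peak score of each beside it. The red bar lies to either side of the blue one, 46 to 242 bases away.

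With these pairs counted in, members near a peak of the other stage had the higher scores. In LP, 106 of 522 members (20.3%) lay under 500 bases from a Phase 1 RUNX1 peak, and in Phase 1, 91 of 694 (13.1%) lay that close to an LP peak. Their median scores were 58.3 and 56.5, and those of the remaining members 27.4 and 24.3. Of the 36 LP-specific members in the highest of 5 equal score classes of their list, 29 were that close, and of the 172 in the lowest class, 11 were. In Phase 1 the counts were 18 of 38 and 6 of 253. Among the 10 highest-scored members 9 of 10 in each direction had such a neighbour. In LP these were Cic (355.4; a transcriptional repressor), Mnt, Dhrsx (267.6), Pip4k2b, Tpm3 (232.8), Cep57, Lnpep (194.4), Ttc9c and Ing5 (189.0), and the exception was Ccnd3, the gene of cyclin D3, whose peak of 180.5 lay 2527 bases from the nearest Phase 1 peak. In Phase 1 they included Mnt, Calr (280.3; the chaperone calreticulin), Cep57, Pip4k2b, Sp4 (218.6), Ttc9c, Fbxo5 and Mir2861 (181.1), and the exception was Mir22hg, with a score of 202.6 and a gap of 570 bases.

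**Figure D2:**
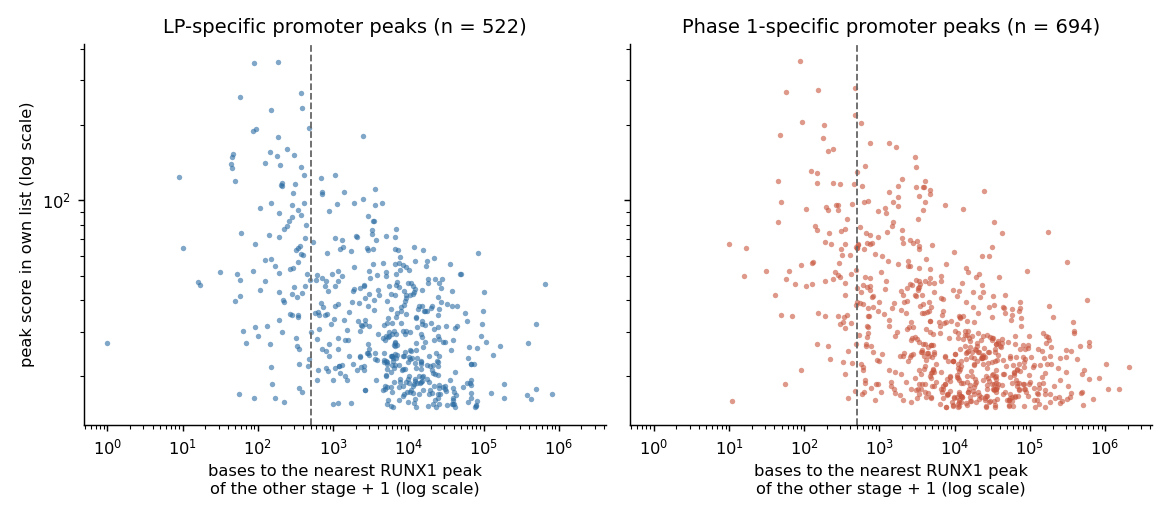
Peak score in its own list (log scale) of each of the 522 LP-specific and 694 Phase 1-specific promoter peaks against the bases to the nearest RUNX1 peak of the other stage plus 1 (log scale); the dashed line marks 500. Apart from Ccnd3 and Mir22hg the 10 highest-scored members of each group lie to the left of the line, and most members lie to the right, with median scores of 27.4 and 24.3.

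Most members were weak calls far from any peak of the other stage. The median distance was 5460 bases for LP-specific and 8530 bases for Phase 1-specific members, and 39 and 136 members lay more than 50000 bases away. Median scores were 31.2 and 25.9, against 92.5 and 93.1 for the promoter peaks called at both stages, and the lowest of the 5 score classes held 33% and 36.5% of the members. Just inside the rule stood Ptbp2, whose LP peak of 27.1 touched a Phase 1 peak of 37.5 with no base between, and Chmp3, whose Phase 1 peak of 66.8 lay 9 bases from an LP peak of 64.6. Just outside stood Nin, whose peaks of 35.2 in LP and 50.4 in Phase 1 shared 4 bases. The order of the 2 counts changed in a single setting. With both lists held to equal numbers of top-scored peaks, which shortens only the Phase 1 list, 652 LP-specific and 472 Phase 1-specific promoter peaks were counted. In the other settings that changed the members, the Phase 1 count stayed the higher. The cause was not tested.

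Members of both kinds lay close before the annotated start, and the Phase 1-specific ones farther out. The rule kept only peaks annotated to a promoter, which bounds the distance. The median position of the centre was 53.5 bp before the start for LP-specific and 88 bp before it for Phase 1-specific members. Centres within 100 bp of the start made up 64.6% (95% Wilson interval 60.4 to 68.5) and 51.7% (48.0 to 55.4), and centres more than 300 bp before it 17.8% (14.8 to 21.3) and 23.2% (20.2 to 26.5). At promoter peaks called at both stages the last share was 5.42% in LP and 5.38% in Phase 1. By GENCODE 32.8% of LP-specific and 23.9% of Phase 1-specific centres fell in an untranslated exon, 22.8% and 26.8% in an intron, and 36.0% and 42.4% between genes. Starts on both strands within 1 kb were found at 15.3% and 16.0% of members and at 25.6% of the promoter peaks called at both stages in LP.

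CTCF separated the 2 directions. A CTCF peak of the same stage overlapped 173 of 522 LP-specific members (33.1%, interval 29.2 to 37.3) and 104 of 694 Phase 1-specific members (15%, 12.5 to 17.8). The share over all promoter peaks, members included, was 29.6% in LP and 26.1% in Phase 1. The odds ratio was 2.81 (two-sided Fisher's exact test, p = 1.37e-13, Benjamini-Hochberg adjusted over 10 tests 4.58e-13). LP-specific members thus stood near the share of all promoter peaks and Phase 1-specific ones below it. CTCF itself was mostly called at both stages. Of the 173 LP-specific members with LP CTCF, 146 also had a Phase 1 CTCF peak, and of the 104 Phase 1-specific members with Phase 1 CTCF, 78 also had an LP one.

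The CTCF consensus in the 200 bp around the peak centre followed the same order. It was present in 24 of 521 LP-specific members (4.61%, 3.11 to 6.76) and 4 of 694 Phase 1-specific members (0.576%, 0.224 to 1.47), with an odds ratio of 8.33 (Fisher's exact test, adjusted p = 6.05e-06). One LP-specific member, at Dhrsx, lies off the named chromosomes and was not searched. Over all promoter peaks the share was 0.801% in LP and 0.541% in Phase 1, and the windows 2 kb away on either side of the LP-specific members held it in 0.192%. All 24 and all 4 of these members also had a CTCF peak. Where an LP-specific member had a CTCF peak, the centres lay a median of 60 bp apart and within 50 bp in 75 of 173 cases. The median was 103.5 bp for Phase 1-specific members and 103 bp for the promoter peaks of the LP list that were called at both stages. Besides Gtpbp2 (151.8), Fem1a (115.5) and Amigo3 (95.5), whose sequences are given above, the consensus was found at Csk (90.8), the gene of a kinase that restrains Src-family kinases, named here after its value was seen.

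RUNX strings showed the reverse order. TGTGGTT or TGCGGTT, on either strand, lay in the 200 bp around the centre in 16 of 521 LP-specific members (3.07%, 1.90 to 4.93) and 73 of 694 Phase 1-specific members (10.5%, 8.45 to 13.0). The odds ratio was 0.27 (Fisher's exact test, adjusted p = 8.52e-07). All promoter peaks held it in 5.39% in LP and 6.11% in Phase 1. In the windows 2 kb away the share was 6.33% beside LP-specific and 4.90% beside Phase 1-specific members, above the peaks in the first case and below them in the second. Base composition moved with this result. Windows with over 50% GC and a CpG ratio, observed to expected, over 0.6 were CpG-dense, and they made up 59.1% (54.8 to 63.3) of LP-specific and 46.5% (42.9 to 50.3) of Phase 1-specific members (Fisher's exact test, odds ratio 1.66, adjusted p = 2.87e-05), against 80.7% and 79.7% of all promoter peaks. Within CpG-dense windows the RUNX string was found in 1.62% (0.695 to 3.74) of LP-specific and 4.02% (2.37 to 6.76) of Phase 1-specific members, with intervals that overlap. Within the other windows it was found in 5.16% (2.91 to 9.01) and 16.2% (12.8 to 20.3).

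The ETS string CCGGAAGT, common in housekeeping promoters, was found in 25 LP-specific members (4.80%, 3.27 to 6.99) and 12 Phase 1-specific members (1.73%, 0.992 to 3.00), with an odds ratio of 2.86 (Fisher's exact test, adjusted p = 0.00505). Both lay under the 8.4% and 8.1% of all promoter peaks in LP and Phase 1. Strings of other factors were counted without a test. The AP-1 strings TGACTCA and TGAGTCA were in 2.11% (1.18 to 3.74) of LP-specific and 8.50% (6.65 to 10.8) of Phase 1-specific members, and windows 2 kb away held them in 3.74% and 4.83%. The GATA string AGATAA was in 3.45% (2.20 to 5.39) and 7.78% (6.01 to 10.0), both under the 13.0% and 10.4% of the windows 2 kb away. For the RBPJ string GTGGGAA, which binds the partner of Notch1-IC, the shares of 4.99% (3.43 to 7.21) and 6.20% (4.63 to 8.24) overlapped in their intervals. A string is a match of letters and not a bound site.

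**Figure D3:**
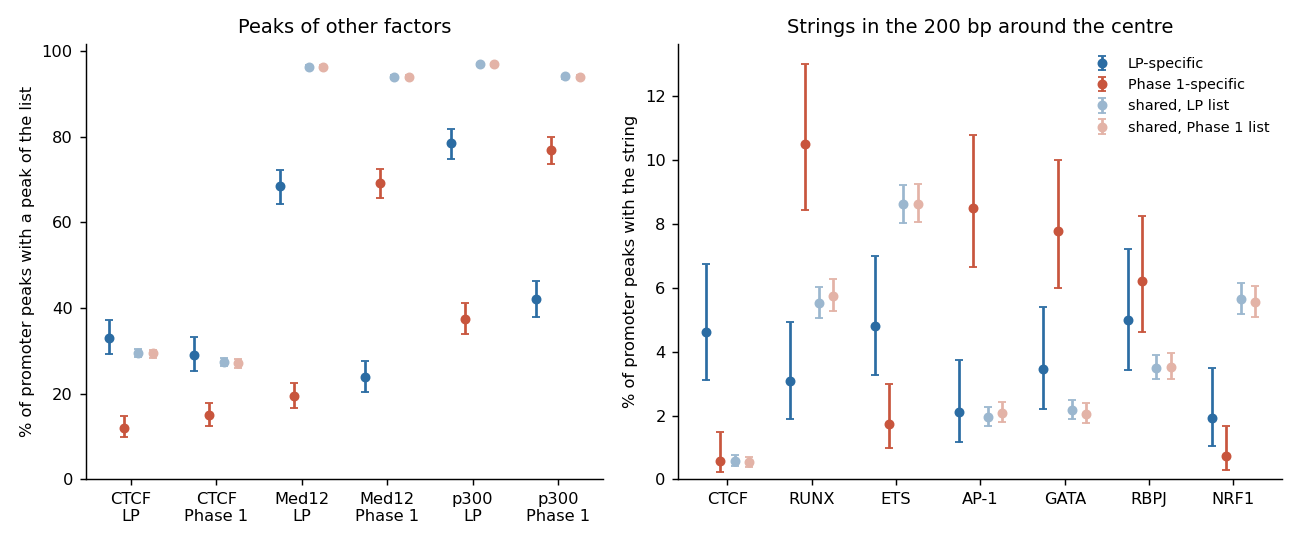
Left, percent of promoter RUNX1 peaks with a CTCF, Med12 or p300 peak of the LP or Phase 1 list; right, percent with a string in the 200 bp around the centre. Points are LP-specific (dark blue, n = 522), Phase 1-specific (dark red, n = 694) and promoter peaks called at both stages in each list (pale), bars are 95% Wilson intervals. The Med12 and p300 points of the members swap their order between the stages and those of CTCF do not, and the CTCF and RUNX strings run in opposite order.

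In the lists without guides, Med12 was called more often at the stage of the RUNX1 peak than at the other stage. The same held for p300 by a smaller margin. An LP Med12 peak overlapped 357 of 522 LP-specific members (68.4%) and a Phase 1 Med12 peak only 124 (23.8%, 20.3 to 27.6). At Phase 1-specific members the shares were turned around, with 135 of 694 (19.5%, 16.7 to 22.6) in LP and 480 (69.2%) in Phase 1. A p300 peak lay over 78.5% of LP-specific members in LP and 42.1% (38.0 to 46.4) in Phase 1, and over 37.5% (33.9 to 41.1) of Phase 1-specific members in LP and 76.9% in Phase 1. A Med12 or p300 peak was called specific to a stage when it shared no base with a peak of the same factor at the other stage. Among members with a specific Med12 peak of exactly 1 stage, this stage was LP at 243 of 261 LP-specific members (93.1%, 89.4 to 95.6) and at 32 of 407 Phase 1-specific members (7.86%, 5.62 to 10.9), with an odds ratio of 158.2 (Fisher's exact test, adjusted p = 8.80e-120). Over all RUNX1 promoter peaks with such a Med12 peak, members included, it was LP at 53.2%. For p300 the counts were 197 of 208 (94.7%, 90.8 to 97.0) and 30 of 331 (9.06%, 6.42 to 12.6). The odds ratio was 179.7 (Fisher's exact test, adjusted p = 1.55e-97), and over all such promoter peaks, members included, the share was 58.6%. Promoter peaks of the LP list called at both stages leaned to LP. Counted by any overlapping peak, 4.58% of them had Med12 in LP only and 2.11% in Phase 1 only. For p300 these shares were 3.97% and 1.08%. In an alternative, members under 500 bases from a peak of the other stage were left out. Among the rest with a specific Med12 peak of 1 stage, it was in LP at 94.3% of LP-specific and 8.01% of Phase 1-specific members. For p300 the shares were 95.1% and 7.95%. The part of RUNX1 peaks farther off or too weak to be called was not tested.

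The presence of a coactivator was not complete at either kind of member. The same-stage Med12 share of 68.4% (64.3 to 72.2) at LP-specific and 69.2% (65.6 to 72.5) at Phase 1-specific members compares with 94.8% and 92.1% over all promoter peaks, and the difference between the directions did not pass the threshold (odds ratio 0.965, Fisher's exact test, adjusted p = 0.803). For p300 the shares were 78.5% (74.8 to 81.9) and 76.9% (73.7 to 79.9), against 95.9% and 92.7%, with an odds ratio of 1.1 (Fisher's exact test, adjusted p = 0.591). When only Med12 peaks with a score of at least 30 were used, the Med12 shares were 44.8% and 32.9% and did differ (odds ratio 1.66, Fisher's exact test, adjusted p = 3.21e-05). Neither stage had a Med12 peak at 147 LP-specific (28.2%) and 180 Phase 1-specific members (25.9%). With and without a CTCF peak, the share with Med12 was 69.9% and 67.6% of LP-specific and 68.3% and 69.3% of Phase 1-specific members. A p300 peak was called at both stages at 40.0% of LP-specific members, where 38.5% had it in LP only, and at 33.1% of Phase 1-specific members, where 43.8% had it in Phase 1 only, and Med12 at 20.3% and 14.6%. The Med12 lists held 30020 peaks in LP and 39132 in Phase 1 and the p300 lists 36182 and 49116. The part of list length in these shares was not tested.

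**Figure D4:**
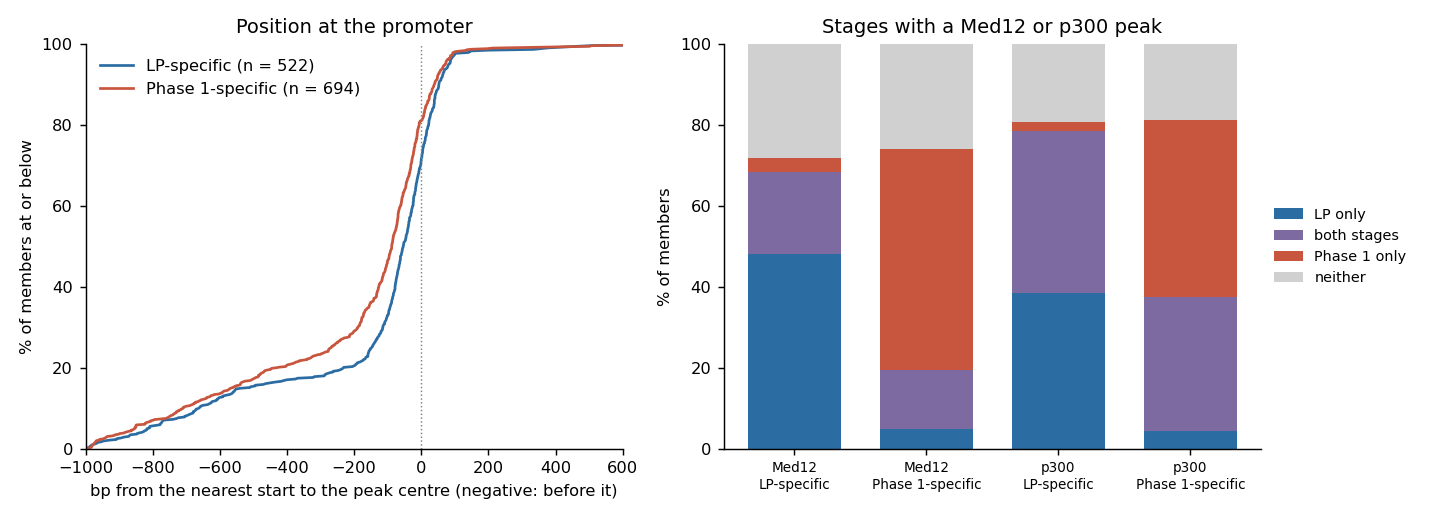
Left, cumulative percent of members by the distance in bp from the nearest start to the peak centre, negative before the start. Right, percent of members with a Med12 or p300 peak in LP only, at both stages, in Phase 1 only or at neither, counted by whether any peak of a list overlaps the member. The Phase 1-specific curve rises earlier, with a median 88 bp before the start, and the stage with Med12 alone is LP at 48.1% of LP-specific and Phase 1 at 54.6% of Phase 1-specific members.

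Notch1-IC was found at few members. Of the 694 Phase 1-specific members, 3 (0.432%) overlapped a Phase 1 Notch1-IC peak and 4 (0.576%) a Phase 2 one, 5 members in all, against 0.363% and 0.0936% of the promoter peaks of the Phase 1 list that were called at both stages. The Phase 1 share was thus near that of the other promoter peaks. No LP-specific member of 522 overlapped either list, which allows a share of up to 0.575%. The Notch1-IC list of LP cells overlapped 1 LP-specific member (0.192%) and 2 Phase 1-specific members (0.288%). Of the promoter peaks called at both stages, it overlapped 1.25% in the LP list and 1.22% in the Phase 1 list. The Notch1-IC lists held 1585 peaks in LP, 152 in Phase 1 and 352 in Phase 2. No test of these differences was run. Hes1, the classical Notch target and a repressor of transcription, had the highest score of the 5 (136.8, at chr16:30065068-30065396). Its centre lay 125 bp before the start, and Notch1-IC was called there in Phase 1 and in Phase 2. Pik3ip1 (121.5) had Notch1-IC in Phase 1, Creb1 (96.8; a cyclic AMP-responsive factor) and Sidt1 (39.4) in Phase 2, and the non-coding gene AW011738 (46.7) at both. All 5 had Med12 and p300 peaks in Phase 1 and none in LP. In the 200 bp around the centre 2 of the 5, Hes1 and AW011738, held the RBPJ string. The Hes1 window, chr16:30065133-30065332, is shown with that string in capitals and was chosen after its values were seen.
Hes1, Phase 1-specific: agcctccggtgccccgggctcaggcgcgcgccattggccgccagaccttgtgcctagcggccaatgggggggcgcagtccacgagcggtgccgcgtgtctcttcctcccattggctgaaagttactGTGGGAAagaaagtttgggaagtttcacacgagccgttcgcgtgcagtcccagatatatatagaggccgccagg

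The gene lists of the Notch pathway and of the T lineage were short and gave small counts of members. Of 9524 genes with a RUNX1 promoter peak at either stage, 5.47% had an LP-specific and 7.22% a Phase 1-specific one. Of 20 such genes in the list of the Notch pathway and its targets, 3 had a Phase 1-specific peak: Hes1, Dtx1 (27.8; the ubiquitin ligase Deltex) and Il2ra (26.5; the CD25 chain of the interleukin receptor). The single LP-specific one was Jag2 (21.6), which encodes a Notch ligand. The peak at Dtx1 lay 30924 bases and that at Il2ra 5079 bases from the nearest LP peak. Il2ra had Med12 at both stages and p300 only in Phase 1, and Dtx1 had neither at either stage.

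Of 16 genes of the T cell receptor and its signaling with a RUNX1 promoter peak, 3 had a Phase 1-specific peak and none an LP-specific one. They were Ubash3a (32.6; a negative regulator of receptor signaling), Ctla4 (31.4; an inhibitory receptor) and Cd3e (21.3; a chain of the receptor complex), and all 3 had Med12 in Phase 1 and not in LP. Of 15 T-lineage transcription factors, Lef1 (43.1) and Bcl11b (26.5), the factor of T-lineage commitment, had a Phase 1-specific peak. Satb1, a chromatin organizer, had both kinds, with 45.8 in LP and 64.4 in Phase 1 and 16 bases between them. At Bcl11b the peak lay 753 bp before the start and had CTCF at both stages and Med12 in Phase 1 only. The counts are too small to read against the background shares.

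The other lists also gave low counts, too small to read against the background shares of 5.47% and 7.22%. Of 15 stem and progenitor genes with a RUNX1 promoter peak, none had an LP-specific one and 3 a Phase 1-specific one, at Fli1 (30.0; an ETS factor), Gfi1b (27.6; a repressor in blood cells) and Meis1 (16.6; a homeobox factor). Among 13 myeloid and innate genes, Cebpe (24.5; a factor of granulocytes) was LP-specific and none was Phase 1-specific. Among 8 B-lineage genes, Pou2f2 had both kinds, with 45.5 in LP and 51.1 in Phase 1 and 423 bases between them. Of 40 genes of RUNX, CTCF, cohesin, Mediator and p300, 1 had a Phase 1-specific peak, Runx2 (27.0), and none an LP-specific one. For the general machinery, 67 ribosomal protein genes gave 3 LP-specific and 2 Phase 1-specific, 38 proteasome genes 3 and 1, and 55 mitochondrial ribosome genes 3 and 1. All 4 genes on the Phase 1 side of these last lists, Rpl10, Rpl7, Psme2 and Mrpl1, had a peak of both kinds.

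RUNX1 lists from cells with control guides, which the rule did not use, were too short to test the stage of the members. They held 975 peaks (LP) and 1550 peaks (Phase 1). Exactly 7 LP-specific members overlapped 1 of these lists and not the other, 6 of them the LP one, against 1 of 2 such Phase 1-specific members (odds ratio 6, Fisher's exact test, two-sided, adjusted p = 0.521). The wide intervals, 48.7 to 97.4% and 9.45 to 90.5%, leave the direction of the members without a check in separate RUNX1 libraries.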

How the data were processed

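ChIP-seq peak lists of LP and Phase 1 cells were analysed. Per the labels, the authors aligned reads to mm10 with Bowtie 1.1.1 after bcl2fastq 1.8.4, and called and annotated peaks with HOMER (version not given in the sources used here). The study's methods describe peaks called against a control, kept when reproducible between both replicates, at a score of at least 15. The deposited peak score and the distance to the nearest start were taken as they stood. Depth per sample is not in these files, so its precision is unknown.

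The gene name column of the RUNX1 lists is empty, so symbols, which the design had assumed from that column, were taken from the annotated RefSeq accession through the RefSeq gene table and GENCODE M21. All 522 LP-specific members and all but 1 of 694 Phase 1-specific members matched. Overlap meant 1 bp or more. Strings were searched for on both strands in 200 bp of GRCm38, the build of mm10, with pysam 0.24.0 and samtools 1.23.1. Matches of different strings may overlap. Shares have 95% Wilson intervals, a count of 0 allows up to 3 counts of the total, and 10 two-sided Fisher's exact tests were adjusted by Benjamini-Hochberg (Python 3.11.15, scipy 1.17.1, statsmodels 0.14.6). Named genes were the 10 highest-scored members per direction, the 5 highest-scored with Phase 1 or Phase 2 Notch1-IC, members of the 10 gene lists, and the 5 highest-scored genes with both kinds of peak. One of these genes is not reported here. Members, lists and tests were chosen with earlier results of these data known. Alternatives covered the score minimum, the overlap rule, list length, promoter definition, 1 peak per gene, score matching, window and mismatch. Inputs were not analysed here.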

Additional observations from a re-analysis of the deposited data

Results flagged for a closer look

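Med12 in Phase 1 cells with guide RNAs against Cbfb, the binding partner of RUNX proteins, lay outside the comparisons above and stood over its control at LP-specific members. A Med12 peak of the sgCbfb list overlapped 237 of 522 LP-specific members (45.4%, 95% Wilson interval 41.2 to 49.7), and one of the sgCont list 151 (28.9%, 25.2 to 33). It was called in sgCbfb only at 105 members and in sgCont only at 19. Of these 105 members, 76 (72.4%) had a Med12 peak in LP cells without guides and 23 (21.9%) one in Phase 1 cells without guides. Over all 522 LP-specific members these shares were 68.4% and 23.8%, so the 105 stood near the class as a whole. The sgCbfb list was the shorter of the 2, with 18099 against 19053 peaks. At Phase 1-specific members the order was not seen, with 140 of 694 (20.2%, 17.4 to 23.3) in sgCbfb and 158 (22.8%, 19.8 to 26.0) in sgCont, and at LP promoter peaks called at both stages the shares were 86.4% and 88.3%. Each list combines 2 replicates, the study describes its ChIP-seq of such cells as noisy, and the difference was not tested.

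The RUNX1 lists of cells with guides touched few members. In Phase 1, 6 Phase 1-specific members (0.865%) had a peak in the sgMed12 list and 1 (0.144%) in sgCont. At Phase 1 promoter peaks called at both stages these shares were 4.54% and 2.07%, and the lists held 2094 and 1550 peaks. In LP, 4 LP-specific members (0.766%) had a peak in sgCTCF and 6 (1.15%) in sgCont. At LP promoter peaks called at both stages these shares were 5.26% and 6.34%. The differences were not tested.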

How the results depend on the processing

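Of 89 alternative values, 80 kept the direction and the side of the threshold, or stayed within 1.5 times the count. The odds ratios ranged from 2.49 to 3.73 for CTCF peaks, 3.21 to 20.4 for the CTCF consensus, 0.268 to 0.366 for the RUNX string, 2.61 to 4.1 for the ETS string, 1.53 to 1.85 for CpG-dense sequence, 124.0 to 295.0 for the Med12 direction and 130.8 to 309.7 for the p300 direction, and all of these alternatives passed the threshold. LP-specific counts ranged from 416 to 865 and Phase 1-specific counts from 443 to 1297. With RUNX1 scores of at least 30 there were 443 Phase 1-specific members, and with promoters defined by GENCODE starts 865 LP-specific and 1297 Phase 1-specific ones. The exact test of same-stage Med12 peaks, which did not pass the threshold, turned from an odds ratio of 0.965 to 1.28 with RUNX1 scores of at least 30, to 1.04 with 50% of the peak covered, to 1.04 with peaks within 500 bp counted as shared, and to 1.66 (adjusted p = 3.21e-05) with factor scores of at least 30. The last setting turned the odds ratio for p300 from 1.1 to 0.943. The sgCont RUNX1 odds ratio (Fisher's exact test) rose from 6 to 8.75 (adjusted p = 0.0451) with GENCODE promoters, on 7 of 9 and 4 of 14 members, and gave no usable odds ratio with peaks within 500 bp shared or with scores matched. The causes were not tested. No paired analysis was possible because each list combines its replicates, and for the same reason no replicate could be left out. The lists give no depth, so a missing peak can be a weak one.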
